A study of Homo sapiens with 10 samples.

Results

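The regions described here are the poly(A) peaks of protein-coding genes in which exactly 1 peak fell at an annotated transcript end. The summit of each deposited peak was placed against windows from 200 bp upstream to 600 bp downstream of every transcript end annotated in GENCODE 44, and a peak in such a window was called a terminal peak. Of 19970 protein-coding genes on chromosomes 1 to 22 and X, 6230 (31.2%) had no terminal peak, 5782 (28.95%) had 1, 3702 (18.5%) had 2 and 4256 (21.3%) had 3 or more, with 16 at most. Of the 5782 genes with 1, 1026 (17.7%) had it in a window shared with another gene and were left out. The remaining 4756 peaks, 1 for each gene and thus selected on measured peak positions, made up 16.6% of the 28625 peaks in a protein-coding end window and 2.68% of the 177793 peaks on these chromosomes (178837 were deposited in all). A further property was not part of the rule: 181 of the 4756 (3.81%) also lay in the end window of a gene of another biotype, such as a long noncoding RNA.

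The peaks came from poly(A) 3′-sequencing of IMR-32 cells, an established human neuroblastoma line in which MYCN is amplified. The cells expressed lentiviral shRNAs against CDK12 (sh22 or sh98, 4 libraries), against CDK13 (sh701 or sh704, 4 libraries) or against GFP as control (2 libraries), with 2 libraries for each of the 5 shRNAs, and all were selected with puromycin. The authors merged the reads of the 10 libraries before calling peaks, so the list holds no value per library, and neither the replicates nor the knockdown and control groups could be compared. The libraries entered at equal size, which is not known from the list, and the loss of the targeted kinases could not be checked in it. CDK12, CDK13 and CCNK, the cyclin of both kinases, had 7, 3 and 4 terminal peaks and are not among the genes described here.

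Most messenger RNAs end where the nascent transcript is cut and a poly(A) tail is added. The cleavage and polyadenylation specificity factor reads the hexamer AAUAAA, or a variant of it, a short distance upstream of the cut, cleavage stimulation factor binds U-rich or GU-rich sequence downstream of it, and cleavage factor I binds UGUA further upstream. Many genes carry several such sites and choose among them, which is called alternative polyadenylation. Libraries primed with oligo(dT) report these sites, but the primer can also anneal to runs of A inside a transcript.

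Because reads of this protocol begin at the poly(A) site, the 3′ edge of a peak on the strand of its gene marks where the reads begin, and sequence was read from that edge in GRCh38. Each peak was put in a signal class by the 50 bases ending at the edge: AATAAA where present, otherwise ATTAAA, otherwise another of 12 hexamers known as poly(A) signals, otherwise none. Stretches of 30 bases follow for the 3 peaks of each class with the highest fold enrichment, because they show what the classes are made of. The hexamer is in capitals, and where there is none the stretch ends at the 3′ edge.
MGAT4B (chr5:179797602-179797631, minus strand): ttgtAATAAAgggttaatgaagtgtgtgcc
NCOA6 (chr20:34714796-34714825, minus strand): gttaAATAAAtgtcattgtcatagaacata
USF2 (chr19:35279785-35279814, plus strand): ctgcAATAAActggccccatgtggcccccg
C11orf24 (chr11:68261335-68261364, minus strand): ctgaATTAAAgtactgactgctcgccacaa
ANKRD39 (chr2:96847988-96848017, minus strand): caagATTAAAgatctaaatataaaaacaca
MAP2K3 (chr17:21315205-21315234, plus strand): gttttaATTAAAaaaaaaaaaaaaaaaagg
SDF4 (chr1:1216911-1216940, minus strand): tttaAATATAgttgccttttttggtcagct
BIN1 (chr2:127048023-127048052, minus strand): aaaaaatGATAAAaactctcagaaaacgtg
MTA1 (chr14:105470703-105470732, plus strand): aaatctTATAAAaaggaaaaaaaccaaccg
RHOT2 (chr16:674142-674171, plus strand): tctgaagacaacttgctttgattcaaccta
ACTR1B (chr2:97655941-97655970, minus strand): aggcccagtgtgtggctctgttttcttgtg
PCBP1 (chr2:70089177-70089206, plus strand): gaaaaagctgggaattgctgtcttaaactc

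The peaks of MGAT4B, a glycosyltransferase that branches N-glycans, NCOA6, a nuclear receptor coactivator, and USF2, a transcription factor that binds E-boxes, carried AATAAA 43, 41 and 33 bp upstream of the edge, counted from the first base of the hexamer. In MAP2K3, a kinase of the p38 pathway, ATTAAA ran straight into a stretch of A that reached nearly to the edge. The highest single fold enrichments among the 4756 peaks belonged to peaks without AATAAA or ATTAAA within 50 bp of the edge. By class, the median folds were 10.05 with AATAAA, 9.88 with ATTAAA, 10.14 with another hexamer and 8.74 with none. SDF4, a calcium-binding protein of the Golgi, reached a fold of 34.4, and BIN1, which bends membranes, a fold of 33.5. The edge of SDF4 lay 42 bp past an annotated end, so most of its 50 bases lay beyond that end. MTA1, a subunit of the NuRD chromatin remodelling complex, and RHOT2, a GTPase that carries mitochondria along microtubules, both reached 32.2. MGAT4B, with AATAAA, followed at 31.0.

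The strength of a peak is given in the list as its fold enrichment, which divides the reads at the summit by those of the local background in the pooled libraries (with 1 added to each), and as the −log10 of a q-value against that background. The number of reads at the summit, called the height here, was recovered from the fold and the p-value. It is a poor measure of expression, because MACS2 by default keeps 1 read for each position and strand, which with reads extended to 100 bp caps the height at 200, and the tallest peak of the whole list had 185. Where all reads of a peak lie on 1 strand, the same rule caps the height at 100. The 4756 peaks had a median height of 17 reads (10th to 90th percentile 7 to 36, range 3 to 94), a median fold of 9.88 (95% interval 9.77 to 10.0) and a median −log10 q of 15.3. For all peaks of the list the medians were 9 reads, a fold of 6.23 and a −log10 q of 6.85.

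The tallest of these peaks, at 94 reads and a −log10 q of 110, was that of PCBP1, an RNA-binding protein that recognises poly(C) and whose gene has no introns. Against other terminal peaks the height differed little. Its median was 16 reads in genes with 2 terminal peaks and 15 in genes with 3 or more. The median fold was 8.44 (8.31 to 8.59) and 7.41 (7.36 to 7.47) in these, below the 9.88 of genes with 1. The median local background was 0.650 reads in genes with 1, 0.910 in genes with 2 and 1.01 in genes with 3 or more. This background comes from the same reads, so a further terminal peak nearby, which the rule counts, can add to it. Folds and q-values of the 3 kinds of gene are therefore given as description. The part of the background in their differences was not tested. The strongest terminal peaks of genes with 2 or more, picked for their strength, stood at 25 reads, and the weaker ones at 13. Not every terminal peak of these genes was compared. The groups held 6300 peaks of genes with 2, 15930 of genes with 3 or more and, among these, 6828 strongest peaks. Some genes with 2 or more thus gave no strongest peak. In the plot of peak heights, the 3 kinds of gene overlapped over most of the range, with maxima of 94, 85 and 87 reads. A −log10 q of 20 or over was reached by 36.3% of the peaks of genes with 1 terminal peak (95% Wilson interval 34.9 to 37.7). It was reached by 27.6% of those of genes with 2 and 19.9% of those of genes with 3 or more. Of the strongest peaks of genes with 2 or more, 56.5% reached it.

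The canonical hexamer was the most frequent class. AATAAA lay within 50 bp of the edge in 2855 of the 4756 peaks (60.03%, 95% Wilson interval 58.6 to 61.4), ATTAAA in a further 685 (14.4%), another hexamer in 523 (11%) and none in 693 (14.6%). Among the 10 less frequent hexamers, AGTAAA (88 peaks), TATAAA (83), AATATA (62) and CATAAA (62) led. As a background for motifs, the stretch of the same length 151 to 200 bp upstream of the same edges held AATAAA in 4.10% and ATTAAA in 2.69% of peaks. TATAAA was present there in 2.38% of peaks, more than the 1.75% given to it at the edge, and AAGAAA in 3.83% against 1.03%. These shares are not counted alike, since a peak was given to a variant only where AATAAA and ATTAAA were absent.

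AATAAA was more frequent here than in genes with several terminal peaks. It was found in 44.8% of the 6300 peaks compared from genes with 2 and 34.9% of the 15930 from genes with 3 or more. The difference from the latter was 25.1 percentage points (95% Newcombe interval 23.5 to 26.7). Against the 6828 strongest terminal peaks of genes with 2 or more, of which 51.5% had AATAAA, the difference was 8.54 points (6.70 to 10.4). Peaks with no hexamer were less frequent (14.6% against 34.9% in genes with 3 or more, difference −20.4, −21.6 to −19.1, and 18.2% for the strongest peaks, difference −3.60, −4.95 to −2.24), as were peaks with only a variant other than ATTAAA (11% against 19.6%, difference −8.63, −9.69 to −7.52, and 17.5% for the strongest peaks, difference −6.52, −7.78 to −5.24). These intervals cover counting error over peaks only and treat each peak as independent, although a gene with several terminal peaks contributed several.

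With any of the 12 hexamers and the wider window of 100 bp, 4327 of the 4756 peaks (91.0%, 90.1 to 91.8) held a signal, against 80.1% in genes with 2 terminal peaks and 74.4% in genes with 3 or more (difference 16.6 points, 15.5 to 17.6). Within the band of peaks with a −log10 q of 20 or over, with the genes grouped as before, the difference was 4.85 points (3.24 to 6.39). The strongest peaks of genes with 2 or more held one in 89.7% (difference 1.32 points, 0.220 to 2.40). In the next 100 bp upstream, a control of the same length, the order was turned around: 38.5% of these peaks held a hexamer against 48.7% in genes with 3 or more.

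The hexamers sat at a narrow distance from the edge. The first base of AATAAA was a median of 24 bp upstream (10th to 90th percentile 19 to 35, most often 22), and 89.1% of these hexamers lay 15 to 35 bp upstream. ATTAAA had the same median of 24 bp and 88.6% in that range. The other variants had a median of 22 bp and 79.0% in it. The plot of signal positions shows the same place for all 3 kinds of gene and a lower summit where a gene had more terminal peaks.

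**Figure D1:**
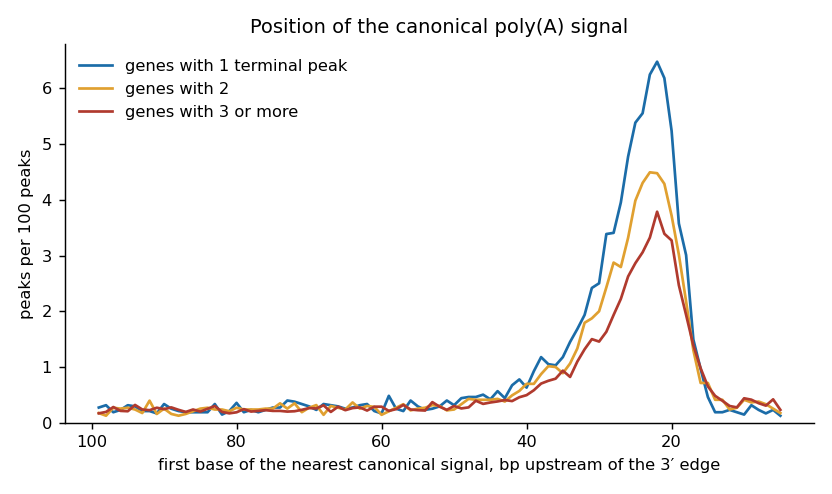
Distance from the 3′ edge of the peak to the first base of the nearest upstream canonical signal (x axis, bp, edge at the right), in peaks per 100 peaks (y axis), for genes with 1, 2 or 3 or more terminal peaks. The genes with 1 terminal peak have the highest summit, 22 bp upstream of the edge.

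Downstream sequence differed as well. TGTGT, chosen as a GU-rich pentamer, was present on the strand of the gene within 40 bp downstream of 16.5% of the peaks, against 10.0% in genes with 3 or more terminal peaks (difference 6.50 points, 5.37 to 7.67) and 14.2% for the strongest peaks of genes with 2 or more (2.31 points, 0.981 to 3.66). In a stretch of 40 bp that began 100 bp downstream it was present in 5.45% and 6.35%. TGTA, the core of the site of cleavage factor I, was found within 100 bp upstream of 51.6% of the peaks and of 46.1% in genes with 3 or more (difference 5.53 points, 3.91 to 7.14). It was not found to differ from the strongest peaks of genes with 2 or more, at 52.8% (difference −1.23 points, −3.08 to 0.620). In the 100 bp further upstream the shares were 41.7%, 47.7% in genes with 3 or more (difference −6.06 points, −7.66 to −4.46) and 49.9% for the strongest peaks (−8.26, −10.1 to −6.42). The share near the edge was above that further upstream in the genes with 1 terminal peak, in those with 2 (47.1% and 44.6%) and for the strongest peaks, and below it in genes with 3 or more.

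The base composition around the edge followed the same layout. In the peaks of genes with 1 terminal peak, adenine reached 48.7% at 20 bp upstream and thymine 42.9% at 17 bp downstream, and over the first 10 bases downstream adenine made up 24.7%. In genes with 3 or more terminal peaks the highest adenine share was elsewhere, at the first base downstream (51.6%), and over the first 10 bases it made up 45.5%. Thymine downstream peaked lower in those genes, at 36.3%, 22 bp from the edge.

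**Figure D2:**
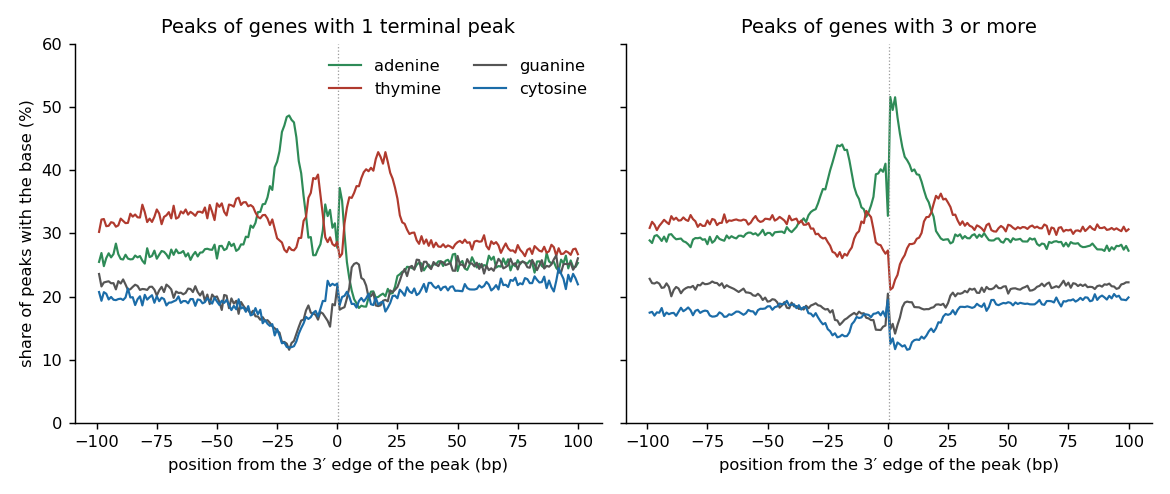
Share of peaks with each base (y axis, %) by position from the 3′ edge of the peak (x axis, bp, negative upstream), for genes with 1 terminal peak (left) and with 3 or more (right). The adenine summit upstream is present in both panels, and at the first base downstream of the edge adenine reaches 37.2% at the left and 51.6% at the right.

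Sequence rich in A just downstream of the edge, where an oligo(dT) primer can anneal without a poly(A) tail, was scored as at least 7 A in the first 10 bases. It was present at 268 of the 4756 peaks (5.63%, 5.01 to 6.33). The share was 17.4% in genes with 2 terminal peaks and 28.4% in genes with 3 or more (difference −22.7 points, −23.7 to −21.8), and 10.6% for the strongest peaks of genes with 2 or more (difference −4.94, −5.91 to −3.95). Both an A-rich stretch and no hexamer within 50 bp were found for 147 peaks (3.09%), against 18.3% in genes with 3 or more and 5.08% for the strongest peaks of genes with 2 or more (difference −1.99, −2.70 to −1.26). The 3 A-rich peaks of highest fold in genes with a symbol, chosen after their values were seen, are shown as the last 20 bases of the peak and the 10 bases after it, with every A of those 10 in capitals.
MAGOH (chr1:53226830-53226859, minus strand): tctatgtgaagtattgcccaAAAAtcAAAt
PWWP2B (chr10:132417875-132417904, plus strand): tttgtttaaatgttaaaaacAAAAAgAgAg
ITGB7 (chr12:53190682-53190711, minus strand): catagcaaaatattatttaaAAAAAAAAAA

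MAGOH, a core protein of the exon junction complex, had a peak of 71 reads whose edge lay 60 bp past its annotated end. The edge of PWWP2B lay 35 bp past its end, and that of ITGB7, an integrin chain of lymphocytes, 631 bp past its end with 10 of 10 bases A. How many of the 268 A-rich peaks came from priming inside a transcript was not tested.

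The signal classes differed in these other measures too. An A-rich stretch was present at 1.68% of the peaks with AATAAA (1.27 to 2.22), 3.36% with ATTAAA, 9.56% with another hexamer and 21.2% with none (18.3 to 24.4). The 3′ edge fell within 10 bp of an annotated end in 85.6%, 79.3%, 60.2% and 20.9% of the 4 classes in the same order. Height hardly varied among them, with medians of 17, 17, 18 and 16 reads. The median folds were 10.05, 9.88, 10.14 and 8.74. A −log10 q below 5 was found for 6.09% of the peaks with AATAAA and 12.8% of those with none.

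In the class without a hexamer, the next 50 bp upstream held one in 246 of the 693 peaks (35.5%), against 190 (27.4%) in the control stretch 151 to 200 bp upstream. The median width of all 693 was 155 bp, against 114 bp for the class with AATAAA. When the 50 bases were instead taken from the nearest annotated end, for the 4234 peaks whose edge lay within 100 bp of one, AATAAA was present in 67.8%, ATTAAA in 16.0%, another hexamer in 10.1% and none in 6.14% (260 peaks). Counted from the edge, 413 of the same 4234 peaks had none, and 204 of these had none from the annotated end either. This count was added after the first one was seen. ATP5PO, a subunit of ATP synthase, and MRPS2, of the mitochondrial ribosome, had no hexamer counted from the edge, which lay 43 and 39 bp past an annotated end, and AATAAA counted from that end. RHOT2, ACTR1B, a dynactin subunit, and PCBP1 had no hexamer within 50 bp although their edges lay 0, 2 and 3 bp from an annotated end.

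Strength and annotation vary with the number of terminal peaks, so the comparison was repeated within bands of each. The share with AATAAA in the genes with 1 terminal peak was 49.3% below a −log10 q of 5 (353 peaks), 55.9% from 5 to 10, 65.4% from 10 to 20 and 59.7% at 20 and over. In genes with 3 or more it was 21.0%, 28.9%, 40.1% and 46.1%, and the difference fell from 28.3 points (22.8 to 33.8) in the lowest band to 13.6 (10.7 to 16.5) in the highest. The A-rich share ran from 13.3% in the lowest band to 2.72% in the highest, against 38.5% and 12.4%. The intervals of the differences from genes with 2 and with 3 or more left out 0 in every band, as the plot of both shares by q-value shows.

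**Figure D3:**
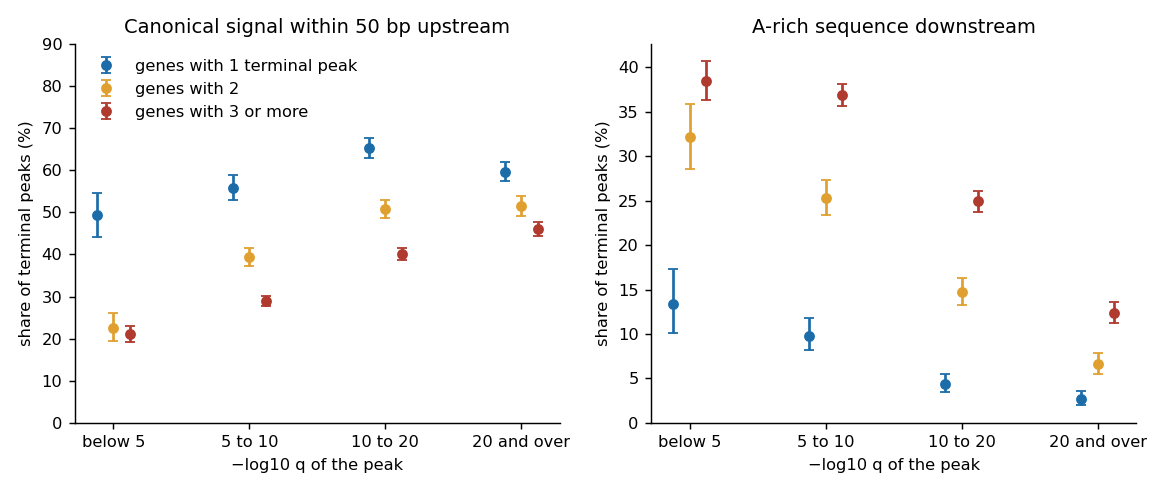
Share of terminal peaks (y axis, %) with AATAAA within 50 bp upstream (left) and with at least 7 A in the first 10 bases downstream (right), by the −log10 q of the peak (x axis). Points are shares and bars 95% Wilson intervals, and in every band the genes with 1 terminal peak have the highest share on the left and the lowest on the right.

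Within bands of the number of annotated ends, the share with AATAAA stayed close to 60.03% in the genes with 1 terminal peak (59.4% with 1 end, 60.4% with 2 or 3, 59.8% with 4 to 7 and 60.4% with 8 or more). In genes with 3 or more it was 35.1%, 39.4% and 33.9% in the last 3 bands. The first band held 6 such peaks, too few for a comparison. The A-rich share was 6.63% in genes with 1 annotated end, where the 87 peaks of genes with 2 showed 3.45% (difference 3.18 points, −3.21 to 6.20). In the other 3 bands it was between 5.26% and 5.61%, below that of genes with 2 or more peaks in each.

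The differences were smaller once the place of the peak in the gene was held. The summit was past the stop codon of the canonical transcript in 93.4% of the genes with 1 terminal peak but in 74.2% of the peaks of genes with 2 and 52.6% of those of genes with 3 or more, whose windows also surround ends annotated inside the gene. Restricted to peaks past the stop codon, a comparison added after the first results were seen, AATAAA was found in 61.6% against 47.1% (difference 14.5 points, 12.7 to 16.3) and an A-rich stretch in 4.21% against 12.3% (difference −8.12, −9.03 to −7.18). Any hexamer within 100 bp was found in 92.1% against 85.6% (difference 6.48, 5.37 to 7.56). Against the strongest peaks of genes with 2 or more, under this restriction, AATAAA was 5.94 points more frequent (4.02 to 7.86) and the difference in A-rich stretches was −1.59 points (−2.43 to −0.730), while the difference in any hexamer within 100 bp was 0.321 points with an interval that spans 0 (−0.756 to 1.38).

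The edges lay close to annotated ends, which the window only partly sets. The median distance from the nearest annotated end was 1 bp downstream (25th to 75th percentile −1 to 9 bp, 90th percentile 103 bp), and 72.5% of the edges fell within 10 bp of an end. In genes with 2 and with 3 or more terminal peaks 49.8% and 38.2% did so. Because the rule places summits around these ends, the shares are given without a test. The end of the canonical transcript itself was matched within 10 bp by 64.0% of the peaks. Edges more than 100 bp downstream of the nearest end made up 10.1% and edges more than 100 bp upstream 0.841%.

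**Figure D4:**
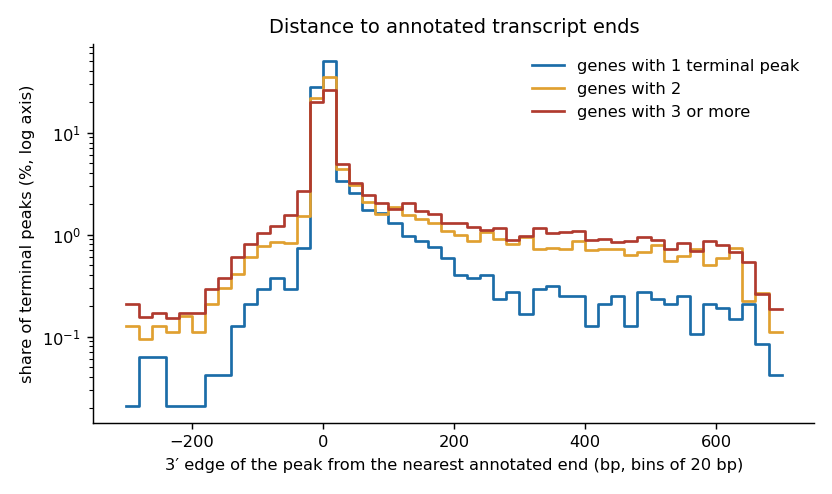
Distance of the 3′ edge of the peak from the nearest annotated transcript end (x axis, bp, bins of 20 bp, positive downstream) as a share of terminal peaks (y axis, %, log axis), for genes with 1, 2 or 3 or more of them. Within 10 bp of an end lay 72.5%, 49.8% and 38.2%, and the genes with 1 terminal peak are lowest at distances over 100 bp.

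The peaks farthest from an annotated end were of both kinds of sequence. On the upstream side were CHMP5, a subunit of the ESCRT-III membrane scission machinery (−543 bp, AATAAA), OTULINL (−481 bp, ATTAAA) and TMEM39A (−478 bp, AGTAAA). Their summits lay more than 200 bp upstream of that nearest end, outside its window. These peaks were counted through the window of another annotated end, upstream of them and farther away. On the downstream side were SLC7A7, an amino acid transporter (829 bp, no hexamer), BCKDHB, of the branched-chain ketoacid dehydrogenase (695 bp, no hexamer), and RAD9B, a paralog of the RAD9A checkpoint clamp subunit (684 bp, AATAAA). The peak of BCKDHB had a height of 3 reads, a fold of 2.99 and 8 A in the first 10 bases downstream. RPA1, the large subunit of the single-strand DNA-binding replication protein A, had a strong peak (fold 23.5, 37 reads, AATAAA) 544 bp past the nearest annotated end and at −2002 bp from the canonical one.

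The limits of the window cut through peaks of ordinary strength. The summits just inside belonged to ANKRD16 (−200 bp from the end, fold 10.9), KITLG (−199 bp, fold 7.25), RAD9B (599 bp, fold 7.39) and ZNF563 (598 bp, fold 13.5). Those just outside belonged to CCNJ and PHLDA2 (−201 bp, fold 10.5 and 10.9) and to MCM8 and PCDHB9 (601 bp, fold 8.06 and 8.77). With windows 50 bp longer at each side, 4519 of the 4756 genes (95.02%) still had 1 terminal peak.

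Genes with 1 terminal peak were shorter and had fewer annotated ends, which also sets how much sequence their windows covered. The median gene length was 22.4 kb (21.2 to 23.4), against 32.0 kb in genes with 2 and 61.3 kb in genes with 3 or more. Their median number of annotated ends was 4, against 7 and 11, and the median 3′ UTR of the canonical transcript was 964 bp (910 to 1009), against 1300 and 1918.5 bp. A canonical transcript without introns was found for 238 of the genes (5.004%, 4.42 to 5.66), 1.19% of those with 2 and 0.0940% of those with 3 or more. Of all genes with a terminal peak, 91.8% of those with 1 annotated end had exactly 1 terminal peak, falling to 67.3%, 43.0% and 23.4% of those with 2 or 3, 4 to 7 and 8 or more ends, as the median window grew from 801 to 5686 bp. The share by chromosome was highest on X (52.3%), 19 (51.9%) and 20 (51.5%) and lowest on 18 (30.5%) and 15 (31.9%).

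A single terminal peak did not mean a single peak in the gene. At least 1 further peak lay within the span of 3533 of the 4756 genes (74.3%, 73.0 to 75.5), and 1223 (25.7%) had the terminal peak alone. In genes with 2 and with 3 or more terminal peaks, 85.3% and 94.7% had a peak other than the terminal ones. Intronic peaks were found in 2921 genes (61.4%, 60.03 to 62.8, and 12.1% when the rule and the count used only peaks with a −log10 q of at least 20), peaks in coding sequence in 758 (15.9%) and peaks in an exon past the last coding base, outside the end windows, in 1300 (27.3%). In genes with 2 and with 3 or more, the shares were 75.5% and 89.1% for intronic peaks and 22.6% and 35.5% for coding sequence. For exons past the last coding base they were 27.7% and 31.2%. Beyond the gene, 57.5% had a peak 0.6 to 10 kb past the end, which may belong to a neighbouring gene since the list has no strand. In genes with 2 and with 3 or more, 64.1% and 63.7% had one. Among the 3533 genes with another peak, the terminal peak was the strongest in 2100 (59.4%, 57.8 to 61.05). A terminal peak was the strongest in 68.1% of such genes with 2 and 71.3% of those with 3 or more, which hold several terminal peaks. The name of the group therefore holds for annotated ends only.

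The intronic peaks differed from the terminal peaks of the same genes. They were read on the strand of the gene, so that peaks of antisense or nested transcripts would be searched on the wrong strand. The 21001 intronic peaks had a median height of 8 reads against 17, 12.8% of them had AATAAA within 50 bp against 60.03%, 63.1% had no hexamer against 14.6%, and 69.9% had an A-rich stretch downstream (69.3 to 70.6) against 5.63%. The part of internal priming in these peaks was not tested. The longest lists of intronic peaks were in NALF1, an auxiliary subunit of the sodium leak channel (158 peaks in 704 kb), SGCZ, a sarcoglycan (147 peaks in 1154 kb), and ALK, a receptor tyrosine kinase that is mutated in neuroblastoma (130 peaks in 729 kb). The terminal peak of ALK had 24 reads, a fold of 11.7, no hexamer within 50 bp and 7 A in the first 10 bases downstream.

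Held by gene length, the share of genes with at least 1 intronic peak was lower in genes with 1 terminal peak than in genes with 3 or more, except in the shortest. Both the rule and this count use measured peaks of the same genes, so the intervals describe counting error and are no test. Only gene length was held, not read depth or the number of annotated ends (median 4 against 11). From 10 to 30 kb it was 65.3% against 72.4% (difference −7.13 points, −10.9 to −3.21). From 30 to 100 kb it was 87.0% against 97.1% (−10.1, −12.2 to −8.16), and at 100 kb and over 93.1% against 99.9% (−6.80, −8.97 to −5.08). The number of intronic peaks per 100 kb did not follow the same order throughout, at 7.94 against 7.84 from 10 to 30 kb, 9.05 against 10.9 from 30 to 100 kb and 6.64 against 11.5 at 100 kb and over. Under 10 kb the shares were 16.1% and 17.1%, with an interval of the difference that spans 0 (−6.83 to 3.93), and the densities 3.84 and 3.07 per 100 kb.

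The groups of genes below are given by how many of their members with a terminal peak had exactly 1, beside 42.1% (41.3 to 42.9) over all 13740 such genes, and by the values of their peaks in the set described here. These shares vary with the number of annotated ends, as given above, and the lists differ in it, so the median number of ends stands beside each share (7 over all protein-coding genes with a terminal peak). Reads with up to 20 mapping positions were kept by the authors, so values of genes with near-identical copies, ribosomal protein genes and tubulins among them, are uncertain. Of 24 listed genes of catecholamine synthesis, secretion and adrenergic identity, which mark adrenergic neuroblastoma cells, 23 had at least 1 terminal peak. Over all protein-coding genes 68.8% had one, and other lists ranged from 447 of 516 zinc finger genes to 79 of 79 ribosomal protein genes, so the count does not set this list apart. Exactly 1 was found in 12 of the 23 (52.2%, 33.0 to 70.8, median 3 ends). Among these were TH, the rate-limiting enzyme of catecholamine synthesis (21 reads, fold 16.9), DBH, which makes noradrenaline (17 reads, fold 11.8), DDC (21 reads, fold 14.97), CHGA, chromogranin A of secretory granules (48 reads, fold 20.1), and the transcription factors INSM1, ISL1 and MYCN. The MYCN peak reached 73 reads but a fold of 8.84, since the local background there was 7.37 reads against a median of 0.650.

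Cytoskeletal genes had the highest share of the groups listed, with an interval that overlaps several others. Of 20 tubulin and intermediate filament genes with a terminal peak, 14 (70.0%, 48.1 to 85.5, median 6.5 ends) had exactly 1. Of the 11 in unshared windows 10 carried AATAAA, beside 60.03% of all 4756 peaks. PRPH, peripherin of peripheral neurons, had 33 reads and a fold of 17.4, and the neurofilament genes NEFL, NEFM and NEFH had folds of 5.22, 6.32 and 8.58. TUBA1B, an α-tubulin, had 77 reads and carried AGTAAA 23 bp upstream.

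In every list the peaks had a median fold above the 9.88 of all 4756, and the respiratory chain was among the highest. Of 77 respiratory chain genes with a terminal peak, 35 (45.5%, 34.8 to 56.5, median 6 ends) had exactly 1, and the 33 peaks in unshared windows had a median fold of 18.1. ATP5PO reached a fold of 27.1 and NDUFB8, of complex I, 23.3. For the mitochondrial ribosome the count was 37 of 76 (48.7%, 37.8 to 59.7, median 5 ends), with a median fold of 14.9 in 33 peaks, led by MRPL20 (fold 27.4, 77 reads, AATGAA) and MRPS2 (fold 26.0). The proteasome had 15 of 33 (45.5%, 29.8 to 62.0, median 8 ends) and a median fold of 13.1, led by PSMD3 (fold 23.1) and PSMB6 (fold 20.1).

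Cytosolic ribosomal protein genes had exactly 1 terminal peak in 23 of 79 (29.1%, 20.3 to 39.9, median 8 ends). The 18 in unshared windows were tall, with medians of 52 reads and a fold of 17.5. Of these 13 carried AATAAA and none lacked a hexamer within 50 bp, beside 60.03% and 14.6% of all 4756 peaks. RPL39 and RPL19, both of the large subunit, led with folds of 21.6 and 21.4. Chaperones had 11 of 47 (23.4%, 13.6 to 37.2, median 8 ends), with STIP1 and CCT2, a co-chaperone of HSP90 and a subunit of the chaperonin TRiC, at folds of 20.6 and 20.3. Aminoacyl-tRNA synthetases had 8 of 36 (22.2%, 11.7 to 38.1, median 12 ends), led by FARSA (fold 16.5) and the intronless MARS2 (fold 15.7).

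The SR and hnRNP proteins, which bind nascent RNA and steer splicing, had the lowest share of the groups listed, with an interval that overlaps several others. Of 38 such genes with a terminal peak, 5 (13.2%, 5.75 to 27.3, median 10.5 ends) had exactly 1: PCBP1 (fold 30.1), HNRNPL (22.1), HNRNPH2 (18.4), TRA2A (17.1) and HNRNPDL (8.78). HNRNPA1 had 8 terminal peaks and HNRNPU 7. Of the 26 cleavage and polyadenylation factors 8 (30.8%, 16.5 to 49.99, median 7 ends) had exactly 1, among them CPSF7, a subunit of cleavage factor I (fold 22.5), CLP1, of cleavage factor II (fold 19.2), and CPSF3, the endonuclease that makes the cut (fold 19.2, no hexamer within 50 bp of the edge). PAPOLA, the poly(A) polymerase, had 10 terminal peaks.

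The kinases under study belong to a family that phosphorylates RNA polymerase II and its partners. Of 17 transcriptional kinases and cyclins 6 (35.3%, 17.3 to 58.7, median 9 ends) had exactly 1, and in unshared windows these were CDK8 of the Mediator kinase module (fold 18.4, 26 reads), CCNH, the cyclin of the CDK-activating kinase (fold 16.6, 57 reads), CCNT1 and CDK9, the 2 parts of P-TEFb (folds 7.25 and 5.52). Homologous recombination and Fanconi anaemia genes had exactly 1 in 9 of 43 (20.9%, 11.4 to 35.2, median 16 ends), with FANCG (fold 18.1, AGTAAA) and CHEK2 (fold 16.8, ATTAAA) the strongest, while BRCA1 had 5 terminal peaks, ATM 9 and RAD50 10. These genes had a median of 16 annotated ends and a length of 65.0 kb, beside 7 ends and 34.2 kb over all genes with a terminal peak.

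Of the DNA damage response genes that the study listed, 150 of 162 names were found among protein-coding genes, and 41 of 147 with a terminal peak (27.9%, 21.3 to 35.6, median 11 ends) had a single terminal peak, RPA1 and RPA2 (folds 23.5 and 22.9) leading. Of the genes that the study assigned premature cleavage and polyadenylation after inhibitor treatment, 185 of 776 with a terminal peak (23.8%, 21.0 to 27.0, median 7 ends) had exactly 1, and 158 of the 177 in unshared windows had an intronic peak. Over all 4756 genes the share was 61.4%, and in those of 30 to 100 kb it was 87.0%. The 776 listed genes with a terminal peak had a median length of 61.2 kb, which is not the median of the 177. Whether the share of the 177 follows gene length was not tested. NCOA5, a nuclear receptor coregulator, led with a fold of 27.7. Zinc finger genes named ZNF, many of them transcriptional repressors, had exactly 1 in 180 of 447 (40.3%, 35.8 to 44.9, median 6 ends). ZNF184 (fold 21.99) and ZNF329 (fold 21.2) were the strongest, and 58.6% of the 174 peaks carried AATAAA, beside 60.03% of all 4756.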

How the data were processed

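Poly(A) 3′-seq libraries (QuantSeq 3′ REV, single-end) of shRNA-expressing IMR-32 cells were the source. The authors trimmed the reads, mapped them to GRCh38 with STAR 2.5.1b, keeping up to 20 positions per read, cut the libraries, made in separate batches, at random to the size of the smallest, merged them and called peaks once with MACS2 2.1.1, extending reads to 100 bp. In the deposited list the interval and the summit offset are positions in bp, the deposited fold is a ratio of the summit pileup to the local background of the same reads, and the deposited p-value and q-value are given as −log10 of a Poisson test of that pileup. Libraries are not separate in it, so neither groups nor batches could be tested. The study then removed peaks that had a long A stretch downstream but no hexamer. By its criterion (no hexamer within 100 bp, and 25 bases with at most 3 other than A within 50 bp downstream) the list still held 22 of the 4756 peaks and 1651 of the 21001 intronic peaks of their genes, so it was taken as the list before that step.

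From these values the whole-number pileup at each summit was recovered, with a largest miss of 0.000146 on the −log10 p scale. Only peaks on chromosomes 1 to 22 and X were used. Peaks took the strand of the gene in whose window they lay, and motifs were searched on that strand in the GRCh38 genome with the GENCODE 44 annotation, whereas the study used the detected transcripts of an earlier release. Shares have 95% Wilson intervals, differences of shares 95% Newcombe intervals and medians exact order-statistic intervals. All scale with the number of peaks or genes, which are not replicates of a condition. Steps were tested on simulated data.

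The group of genes, the gene lists and the tests were chosen with earlier results of these data known. Named genes were set by rule: by fold, the 5 highest peaks, the 3 highest of each signal class and the 2 highest of each list, then the 3 with the most intronic peaks, the 3 farthest from an end on either side and the nearest to the window limits. Other names (the A-rich examples, members of the lists and genes with many terminal peaks) were chosen after their values were seen. Older symbols of the study's damage response list were matched through RefSeq synonyms. Alternatives changed the q-value, the window, the transcripts, the position used, the merging of near peaks and the motif settings. Scripts ran under Python 3.11.15 (pandas 2.3.3, numpy 2.4.6, pysam 0.24.0, scipy 1.17.1, matplotlib 3.10.9), with samtools 1.23.1 for the genome.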

Additional observations from a re-analysis of the deposited data

How the results depend on the processing

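Other settings gave between 4575 and 6473 single-peak genes, against 4756, except that windows around the canonical end alone gave 9765. The share with any of 12 hexamers within 100 bp, 91.0%, became 92.5% at a −log10 q of at least 20, 92.9% with windows of 100 bp each way, 93.6% with canonical transcripts, 92.6% with protein-coding transcripts only, 92.1% past the stop codon, 85.4% within 50 bp and 79.9% with AATAAA and ATTAAA only. Searched upstream of the summit, it was 36.3%, and the difference from genes with 3 or more terminal peaks turned to −5.30 points (−6.86 to −3.72), since that window ends before the usual place of the signal. Under the other settings this difference, 16.6 points, ranged from 6.48 past the stop codon (5.37 to 7.56) to 31.1 with canonical transcripts, where the interval was wide (18.8 to 45.2). It was 8.75 (5.32 to 12.8) when the rule was applied anew to peaks with a −log10 q of at least 20. Within the highest q-value band, with the genes grouped as before, it was 4.85. The A-rich share, 5.63%, became 4.54% with the shorter windows, 3.34% with canonical and 4.63% with protein-coding transcripts, 4.21% past the stop codon, 3.17% at the summit, 8.05% for at least 6 A and 3.57% for at least 8. Its difference from genes with 3 or more kept its sign under all settings run, from −29.0 to −0.698 points, the latter at the summit. The share of genes with an intronic peak, 61.4%, became 58.2% and 12.1% at a −log10 q of at least 5 and 20, 65.7% with the shorter windows, 73.8% with canonical and 67.0% with protein-coding transcripts. Leaving out the peaks that the study's removal step would drop gave differences of 15.6 and −21.8 points. This setting and the past-stop one were added after seeing the data. No replicate could be left out. No paired analysis was possible because peaks were called on merged reads. Libraries entered at equal size, but that size is not known here.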
